A study of Rattus norvegicus with 12 samples.

Results

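Astrocytes are the cells that take up glutamate and potassium, move water along vessel walls and join into networks through gap junctions, and after injury many of them enlarge and become reactive, a state called gliosis. Here 8 genes of these cells were followed in the rat prefrontal cortex, chosen by Ensembl gene identifier with their symbols given by the rule: Gfap (ENSRNOG00000002919), Vim (ENSRNOG00000018087), Aqp4 (ENSRNOG00000016043), S100b (ENSRNOG00000001295), Slc1a2 (ENSRNOG00000005479), Slc1a3 (ENSRNOG00000016163), Gja1 (ENSRNOG00000000805) and Glul (ENSRNOG00000049560). All 8 were found among the 43206 genes of the files, in 18 rows of transcripts, 16 from Ensembl and 2 named only by an assembler. The files do not pair identifiers with names, so other astrocyte genes and markers of neurons, oligodendrocytes, microglia or vessels were not analysed here.

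The tissue came from SD rats on postnatal day 28, and each of 3 groups held 4 libraries. The normal group carries no other label, the second group had hypoxic-ischemic brain damage (HIBD, a loss of blood flow and oxygen) and is called the HIBD model group, and acupuncture is all that is recorded for the last group. The title of the series places the acupuncture in rats with such damage. Libraries are named by the number in their labels (normal 8, 10, 11 and 13, HIBD model 2, 8, 16 and 18, acupuncture 5, 22, 35 and 55), and a number shared by 2 groups does not link them. The labels do not say that each number is a separate animal, so a p-value speaks only of how these libraries spread, which may be technical in part. They also do not name the side or extent of the damage, the age at injury, or the sex of the rats.

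Levels are given as FPKM, summed over the transcript rows of a gene. The files do not name this unit, which was read from the values, so that the scaling by transcript length is assumed. The estimated count per unit of FPKM ran from 21.2 to 4697 over the 17 member rows above 0, and no transcript lengths were at hand to set beside it, so the order of levels between genes holds only as far as the unit does. Tests used the deposited estimated counts summed per gene, in edgeR's quasi-likelihood test with TMM scaling, with Benjamini-Hochberg adjustment over all 27885 genes tested, with a threshold of 0.05. CPM values are those estimated counts scaled to the TMM-adjusted library total. Total estimated counts lay between 714904584 and 1090316733 per library. How many reads stand behind a unit is unknown, and no counting interval is given. Fewer astrocytes in a piece of tissue and less RNA of a gene per astrocyte cannot be told apart in such bulk samples.

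Gfap and Vim are intermediate filament genes, and they are the genes by which gliosis is most often read, so the bases before their starts are shown. Gfap encodes glial fibrillary acidic protein, the filament by which astrocytes are usually recognised, and Vim encodes vimentin, a filament of immature and reactive astrocytes that vessel cells also make. The sequences are the 250 bases before the start of each gene in RefSeq (build GRCr8), Gfap at chr10:88361662-88361911 on the minus strand and Vim at chr17:81577011-81577260 on the plus strand, written 5′ to 3′ with any searched motif in capitals.
Gfap: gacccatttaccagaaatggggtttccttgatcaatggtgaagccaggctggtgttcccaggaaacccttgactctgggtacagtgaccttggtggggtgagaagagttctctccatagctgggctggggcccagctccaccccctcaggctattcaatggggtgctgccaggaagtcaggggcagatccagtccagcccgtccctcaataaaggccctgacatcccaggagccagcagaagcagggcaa
Vim: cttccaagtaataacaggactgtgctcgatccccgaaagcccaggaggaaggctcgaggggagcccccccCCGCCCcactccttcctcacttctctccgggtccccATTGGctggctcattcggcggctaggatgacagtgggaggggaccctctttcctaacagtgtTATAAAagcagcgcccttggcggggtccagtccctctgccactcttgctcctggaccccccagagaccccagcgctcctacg

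A set of 5 motifs was searched on both strands: the TATA box, written TATAAA, the CCAAT box under its own letters, the GC box, written GGGCGG, a STAT site, written TTCNNNGAA, and an AP-1 site, written TGANTCA. The Vim window held the TATA box, the CCAAT box and the GC box once each, 82, 144 and 180 bases before the start, the last 2 on the reverse strand. The Gfap window held none of the 5, which says only that these letters are not in it. Among 33465 windows of the same length, 12.9% held the TATA box, 34.0% the CCAAT box, 30.5% the GC box, 7.67% the STAT site and 6.34% the AP-1 site. These are matches of letters only, and G and C made up 57.6% of the Gfap window and 62.4% of the Vim window.

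All 8 genes were above 0 in all 12 libraries, and most were among the most abundant transcripts of the tissue. Slc1a2 and Glul had the highest means over the 12 libraries, 636 and 636 FPKM, ranks 40 and 41 of 43206 genes. S100b followed at 357 FPKM (rank 85), then Slc1a3 at 178 FPKM (rank 220), Gja1 at 158 FPKM (rank 273), Gfap at 85.8 FPKM (rank 590), Aqp4 at 60.9 FPKM (rank 965) and Vim at 33.1 FPKM (rank 2095). The order of Slc1a2 and Glul was not fixed, since each was the higher in 6 of the 12 libraries. Glul was above S100b and S100b above Slc1a3 in all 12 libraries, and Slc1a3 was above Gja1 in 11. Gja1 was above Gfap in all 12, while Gfap was above Aqp4 in 10 and Aqp4 above Vim in 10.

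**Figure D1:**
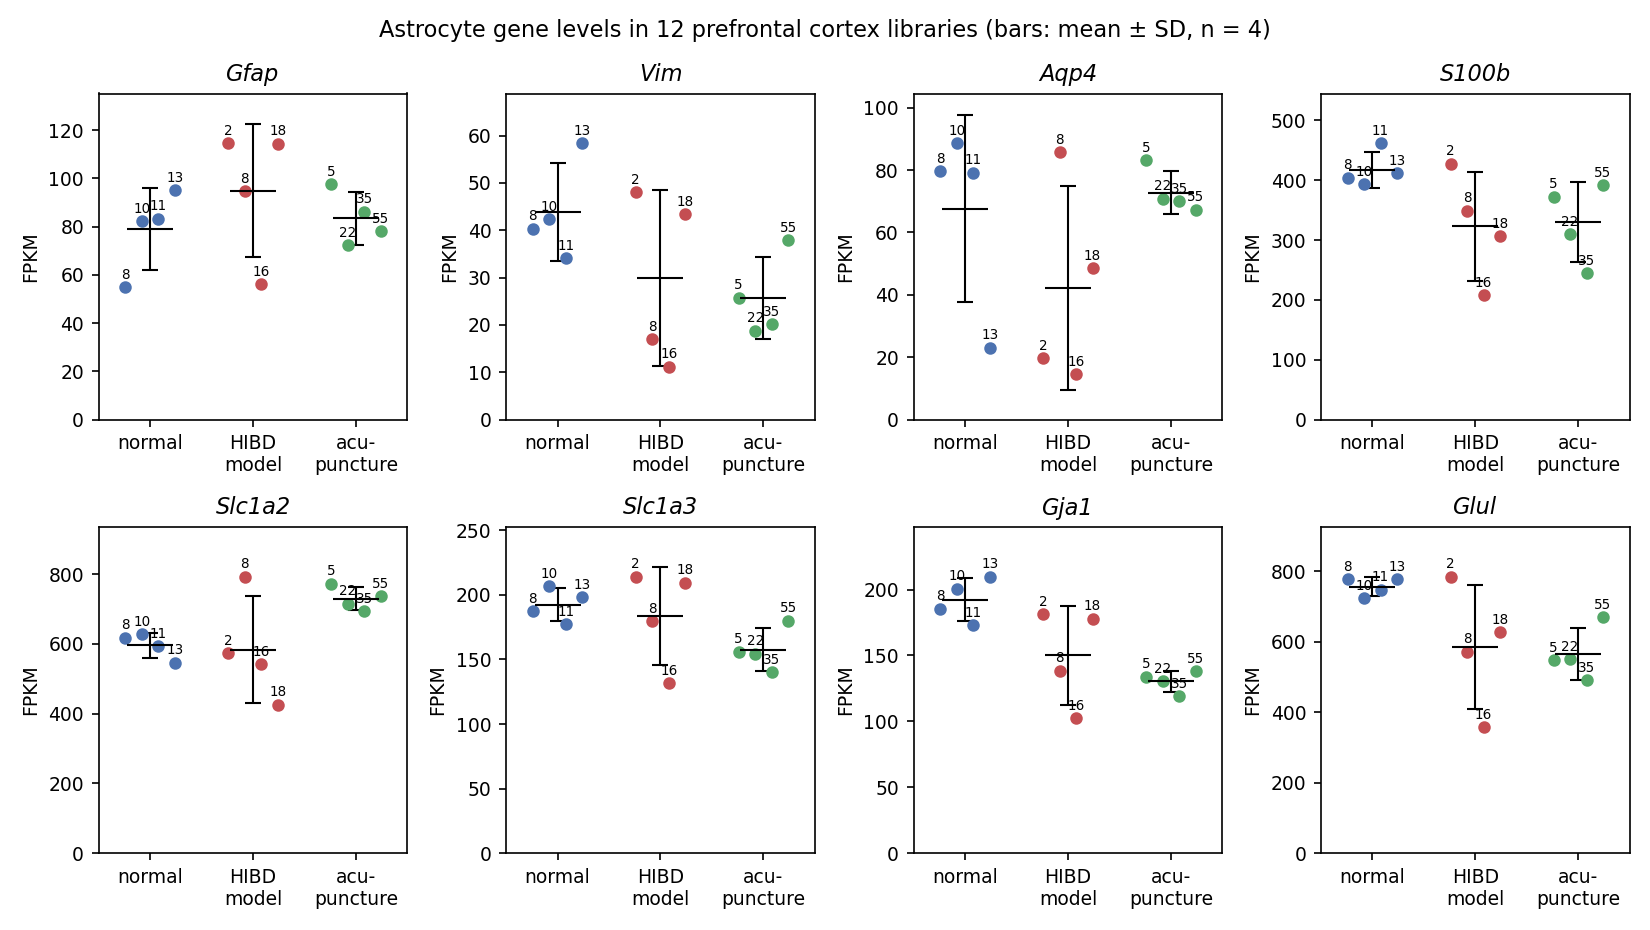
Levels of the 8 genes in each library (FPKM, y axis from 0) by group (x axis); each point is 1 library with its number, and the bars give the mean ± SD of 4 libraries. The HIBD model points spread widely in all 8 panels, and in the Gja1 panel the acupuncture points (119 to 138 FPKM) lie below the normal points (173 to 210 FPKM).

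Library HIBD model 16 stood apart before any comparison. It had the lowest FPKM of all 12 libraries for 6 of the 8 genes (Vim, Aqp4, S100b, Slc1a3, Gja1 and Glul), and it was the lowest library for 25.2% of the 15658 genes with a mean of at least 1 FPKM. On the CPM scale it was the lowest for 5 of the 8, and the share over all genes was not computed on that scale. Its level relative to the mean of the other 3 HIBD model libraries ran from 0.286 for Aqp4 and 0.309 for Vim to 0.656 for Slc1a3 and 0.907 for Slc1a2 (ratios of FPKM). The summed FPKM of all genes was also lowest there, at 392600, but close to 397247 in HIBD model 8. It reached up to 475924, in HIBD model 18.

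Spread within the groups differed as well. The SD as a percent of the mean (FPKM) had a median over the 8 genes of 28.7% in HIBD model libraries, 7.87% in normal and 11.8% in acupuncture libraries. The median over the 6509 genes with a mean of at least 10 FPKM was 14.5%, 8.73% and 11.4% in the same order. Without HIBD model 16 the median over the 8 genes in its group was 16.9% (n = 3), beside 13.3% over all such genes. Most of the wider median thus rested on that library, but not the spread of each gene. Without it the SD rose from 153 to 184 FPKM for Slc1a2 and from 32.6 to 33.1 FPKM for Aqp4. It fell from 18.5 to 16.7 FPKM for Vim, and also fell for Gfap, S100b, Slc1a3, Gja1 and Glul. As a percent of the mean, the highest of the 8 was 77.4% with that library and 64.4% without. No test was made of the difference in spread between groups.

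Setting HIBD model against normal libraries asks which levels differ after the injury. None of the 8 genes passed the adjusted threshold, against 0.0968% of all genes tested (edgeR). One, Gja1, had an unadjusted p under 0.05, where 22.4% of all genes did. DESeq2 and limma-voom on the same sums also called 0 of the 8, where they called 13.5% and 0.0179% of all genes. In edgeR 3 genes were on the higher side and 5 on the lower side, with a median log2 fold change of -0.28, beside 0.01 over all genes tested and -0.06 over the 4490 abundant genes (mean log2 CPM 5 or more). Without HIBD model 16 the median of the 8 was -0.16. For none of the 8 did the FPKM ranges of the groups lie apart, as they did for 12.9% of genes tested (5.44% higher, 7.48% lower).

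Acupuncture was next set against the HIBD model, the question being what differs with treatment. Again 0 of the 8 genes passed in edgeR, where 0% of all genes did. None had an unadjusted p under 0.05, against 5.31% of all genes, and DESeq2 and limma-voom called 0 as well, against 0.635% and 0% of all genes. Here 4 genes were on each side, with a median log2 fold change of -0.06, beside -0.0017 over all genes tested, and the median was -0.20 without HIBD model 16 and 0.12 without HIBD model 2. No member had ranges that lay apart, against 1.97% of genes (1.17% higher, 0.8% lower).

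Last, acupuncture was set against normal, which asks how far the treated group is from the normal one. None passed in edgeR, against 0.0825% of all genes, and 2 (Gja1 and Slc1a2) had an unadjusted p under 0.05, against 24.5%. DESeq2 called 1 of the 8, Gja1, in a comparison where it called 15.6% of all genes, and limma-voom called 0, against 0.0323%. The ranges of FPKM lay apart for 4 of the 8 genes, Slc1a2 higher and S100b, Gja1 and Glul lower, in a comparison where ranges lay apart for 22% of all genes tested (6.62% higher, 15.4% lower). On the CPM scale 3 lay apart, without S100b, against 17.6% of all genes (9% higher, 8.6% lower). These comparisons share libraries with the ones above, so their values are set side by side below and not counted as separate support. Values of this comparison also depend on the scale: over the 4490 abundant genes the median log2 difference was -0.03 with TMM scaling and -0.15 on log2(FPKM + 1), and each log2 fold change on FPKM has to be read against that shift. Between HIBD model and normal the same medians were -0.06 and -0.15, so FPKM levels in that comparison carry a like shift.

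**Figure D2:**
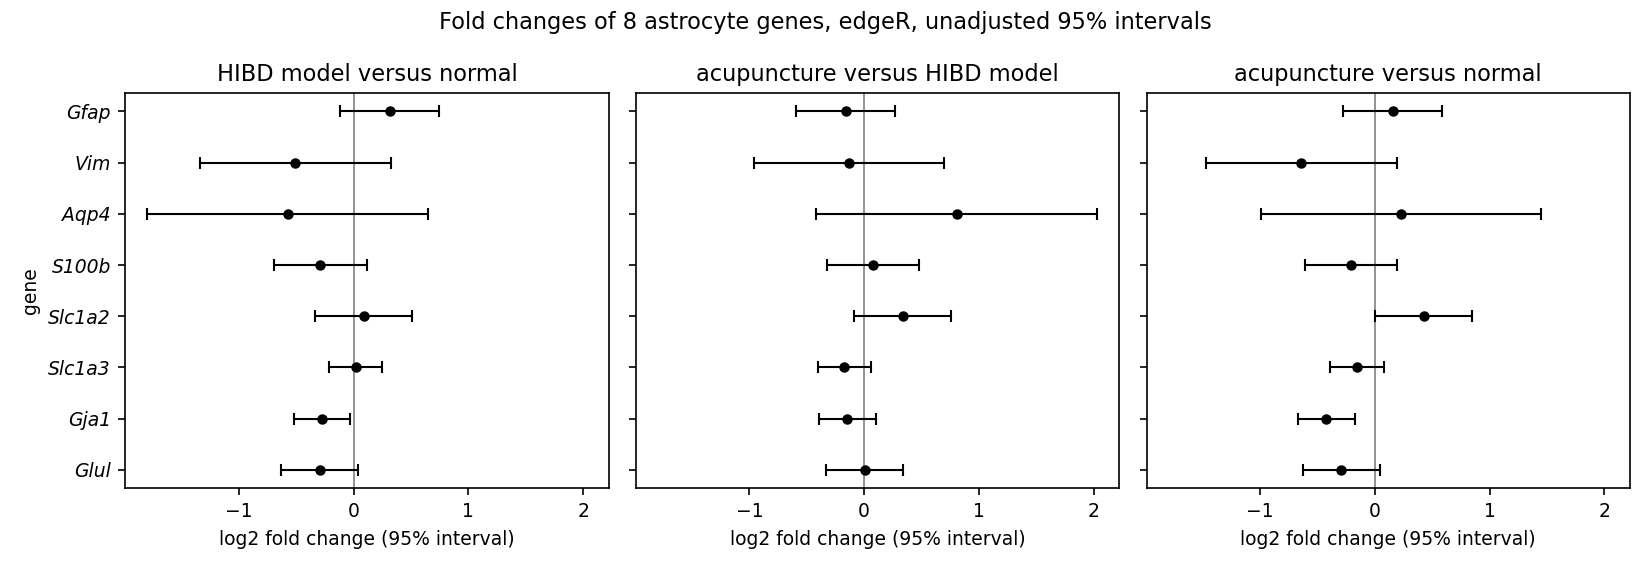
Log2 fold change of each gene in the 3 comparisons (x axis, edgeR estimate with its unadjusted 95% interval), genes on the y axis. The intervals of Vim and Aqp4 are the widest, and those of Gja1 (HIBD model versus normal, acupuncture versus normal) and Slc1a2 (acupuncture versus normal) do not reach 0, although neither gene passed after adjustment.

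Gfap, the gliosis marker, measured 54.9, 82.3, 83.3 and 95.1 FPKM in normal 8, 10, 11 and 13. It measured 114.6, 94.7, 56.1 and 114.5 FPKM in HIBD model 2, 8, 16 and 18, and 97.6, 72.4, 86.2 and 78.0 FPKM in acupuncture 5, 22, 35 and 55. On FPKM HIBD model 2 and 18 were above every other library, HIBD model 8 was inside the normal range, and HIBD model 16 was close to the lowest library, normal 8. On the CPM scale HIBD model 8 and acupuncture 5, at 53.9 and 53.5 CPM, were also above the normal range of 29.0 to 47.4 CPM. HIBD model 16 and acupuncture 22, 35 and 55 lay within that range. The group means were 78.9 ± 17.0, 94.97 ± 27.5 and 83.6 ± 10.9 FPKM (SD, n = 4; normal, HIBD model, acupuncture). The log2 fold change between HIBD model and normal was 0.32 (SE 0.20, 95% interval -0.12 to 0.75, edgeR adjusted p = 0.389). Without HIBD model 16 it was 0.47 (edgeR adjusted p = 0.212) and without normal 8 it was 0.20 (edgeR adjusted p = 0.689). It was 0.16 between acupuncture and normal (SE 0.20, edgeR adjusted p = 0.670), with 0.03 without normal 8.

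Gfap had 3 transcript rows, all with Ensembl identifiers. The leading row, ENSRNOT00000034401, averaged 78.0 FPKM, and the other 2, ENSRNOT00000093266 and ENSRNOT00000093167, averaged 6.04 and 1.80 FPKM. The leading row held 95.1%, 91.3%, 93.5% and 94.96% of Gfap in normal 8, 10, 11 and 13, and 93.7%, 89.0%, 88.6% and 90.7% in HIBD model 2, 8, 16 and 18. In acupuncture 5, 22, 35 and 55 it held 88.7%, 89.0%, 84.3% and 91.2%. On the FPKM scale all 4 acupuncture libraries were below all 4 normal libraries, narrowly, at 91.22% in acupuncture 55 and 91.27% in normal 10. In estimated counts the 3 rows held 40244, 876 and 33 in acupuncture 55 and 38707, 848 and 30 in normal 10. By these counts the share was slightly higher in acupuncture 55, so the full separation holds only on the assumed unit. On FPKM the difference in means was -5.41 percentage points (two-sided exact permutation p = 0.0286, the smallest that 4 against 4 libraries can give, and 0.161 adjusted over 15 tests of 5 genes in 3 comparisons), so it did not pass. Between HIBD model and normal the difference was -3.16 percentage points (exact permutation p = 0.0857, adjusted 0.161).

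**Figure D3:**
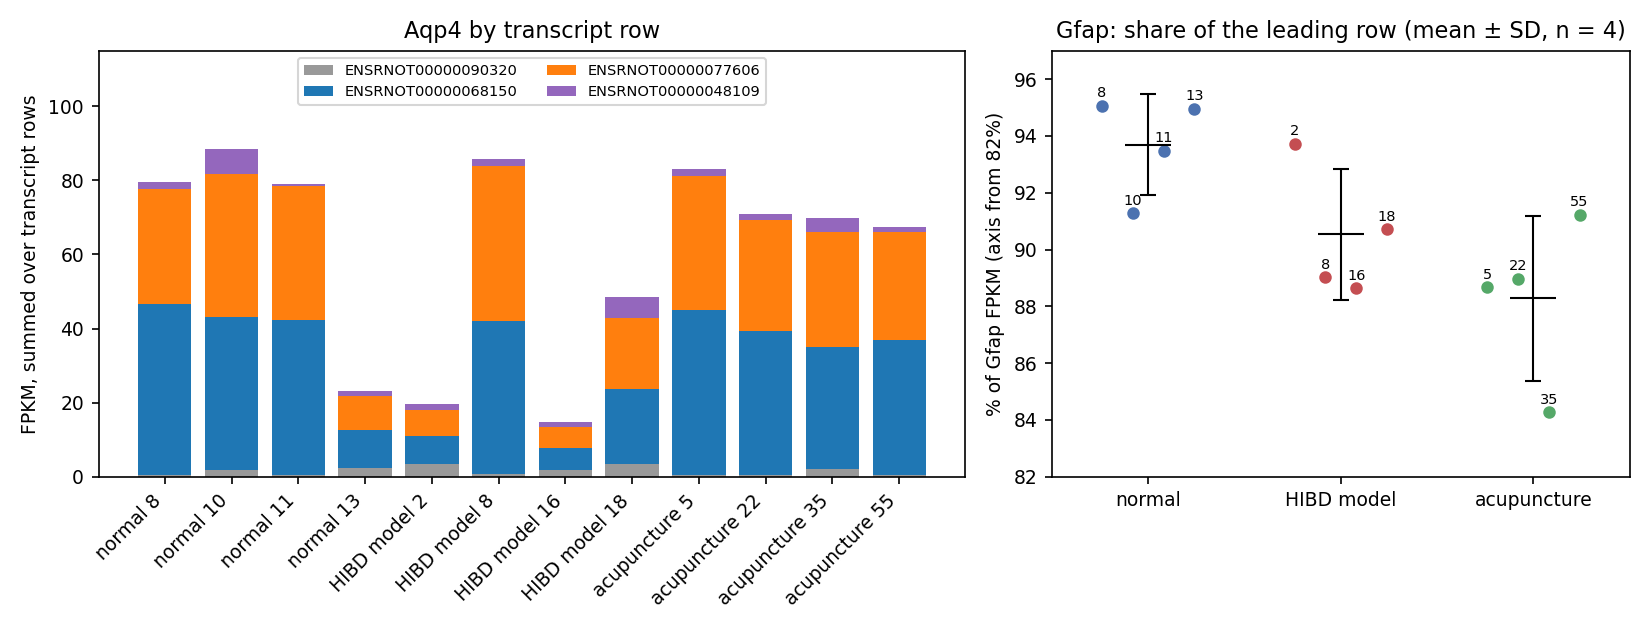
Left, Aqp4 FPKM in each library (x axis) stacked by transcript row, with bars from 0; right, the percent of Gfap FPKM held by its leading row in each library by group, with mean ± SD of 4 libraries and an axis that begins at 82%. Aqp4 is low in normal 13 and HIBD model 2 and 16, and intermediate in HIBD model 18, in both of its main rows. The Gfap share in acupuncture libraries (84.3% to 91.2%) lies below that in normal libraries (91.3% to 95.1%).

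Vim, the other filament gene, had 1 transcript row. It measured 40.3, 42.3, 34.2 and 58.4 FPKM in normal 8, 10, 11 and 13. It measured 48.1, 17.1, 11.2 and 43.4 FPKM in HIBD model 2, 8, 16 and 18, and 25.7, 18.8, 20.1 and 37.9 FPKM in acupuncture 5, 22, 35 and 55. The HIBD model group fell into a pair within the normal range (2 and 18) and a pair below it (8 and 16), and 3 of the 4 acupuncture libraries were below the normal range. Means were 43.8 ± 10.3, 29.9 ± 18.5 and 25.7 ± 8.72 FPKM (SD, n = 4; normal, HIBD model, acupuncture). Its log2 fold change was -0.51 between HIBD model and normal (SE 0.38, edgeR adjusted p = 0.478) and -0.64 between acupuncture and normal (SE 0.38, edgeR adjusted p = 0.325). With 1 surrogate variable as covariate, a value per library estimated from all genes, these were 0.27 (edgeR adjusted p = 0.735) and 0.52 (edgeR adjusted p = 0.999). That variable was negative in all 4 normal libraries (-0.45 to -0.08) and positive in all 4 acupuncture libraries (0.06 to 0.26), and in the HIBD model group it was negative in 2 and 18 and positive in 8 and 16. It cannot be told apart from the contrast of acupuncture with normal, so values under it do not bear on the direction of that contrast.

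The ratio of Gfap to Vim (FPKM within a library) was 1.36 to 2.44 in normal libraries, 2.38, 5.55, 5.02 and 2.64 in HIBD model 2, 8, 16 and 18, and 2.06 to 4.28 in acupuncture libraries. Over the 12 libraries Pearson's r between their log2 CPM was 0.25 (permutation p = 0.437) and Spearman's rho 0.36 (permutation p = 0.246), neither of which passed over 21 pairs. With the group means removed r was 0.58, and on log2 FPKM it was 0.43. The ratio was formed after the values were seen and is a description.

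Aqp4 encodes aquaporin-4, the water channel of astrocyte endfeet around vessels. It measured 79.7, 88.6, 79.1 and 23.1 FPKM in normal 8, 10, 11 and 13. It measured 19.7, 85.7, 14.7 and 48.5 FPKM in HIBD model 2, 8, 16 and 18, and 83.1, 70.8, 69.97 and 67.3 FPKM in acupuncture 5, 22, 35 and 55. The level was 67.3 FPKM or above in 8 libraries and 14.7 to 23.1 FPKM in normal 13 and HIBD model 2 and 16. HIBD model 18, at 48.5 FPKM, lay between, closer to the higher libraries. The log2 fold change was -0.57 between HIBD model and normal (SE 0.55, 95% interval -1.80 to 0.65, edgeR adjusted p = 0.602), and with 1 library left out it ran from -1.27 (without HIBD model 8) to -0.30 (without HIBD model 16). For acupuncture against the HIBD model it was 0.81 (SE 0.55, edgeR adjusted p = 1.0), which was 1.51 without HIBD model 8 and 0.53 without HIBD model 16. Between acupuncture and normal it was 0.23 (SE 0.55, edgeR adjusted p = 0.834), which turned to -0.06 without normal 13, so that direction rests on that library.

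The low Aqp4 levels were those of its 2 main transcript rows. Of 4 Ensembl rows, ENSRNOT00000068150 and ENSRNOT00000077606 carried most of the level, with means of 30.6 and 26.2 FPKM, while ENSRNOT00000090320 and ENSRNOT00000048109 averaged 1.5 and 2.48 FPKM. In normal 13 and HIBD model 2, 16 and 18 the first measured 10.3, 7.59, 5.94 and 20.2 FPKM and the second 9.26, 6.94, 5.52 and 19.0 FPKM. In the other 8 libraries both were at least 29.0 FPKM. The minor rows were not low there: in the same 4 libraries ENSRNOT00000090320 measured 2.30, 3.49, 1.93 and 3.55 FPKM, against 0.353 to 2.17 FPKM in the other 8. This row was thus higher in normal 13 and HIBD model 2 and 18 than in any of the other 8, opposite to the main rows. In the same order ENSRNOT00000048109 measured 1.24, 1.70, 1.30 and 5.78 FPKM, within the 0.585 to 6.89 FPKM of the other 8. The share of the leading row was 42.2 ± 4.30% in HIBD model, 50.5 ± 6.2% in normal and 52.5 ± 3.8% in acupuncture libraries (SD, n = 4), and the difference of 10.3 percentage points between acupuncture and HIBD model did not pass (exact permutation p = 0.0571, adjusted 0.161).

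Among 15657 genes with a mean of at least 1 FPKM, 0 reached a Pearson r of 0.9 with Aqp4 over the 12 libraries on log2(FPKM + 0.1), and the highest r was 0.84. The same count was 2 for Gfap, the genes ENSRNOG00000055641 (r = 0.92) and ENSRNOG00000056200 (r = 0.91), whose names the files do not give, and 3 for Slc1a2. It was 58 for S100b, 126 for Slc1a3, 404 for Glul, 594 for Vim and 702 for Gja1. On the TMM-scaled CPM scale the counts were 0 for Gfap and Aqp4, 5 for Slc1a3, 20 for S100b, 33 for Slc1a2, 65 for Glul, 94 for Vim and higher still for Gja1. On both scales Gja1, Vim and Glul varied with the most genes of the tissue, and Gfap and Aqp4 with the fewest. These are correlations of single libraries given as a description.

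S100b encodes a calcium-binding protein that astrocytes make and release, and oligodendrocytes make it too. It measured 404, 393, 462 and 411 FPKM in normal 8, 10, 11 and 13. It measured 428, 349, 208 and 306 FPKM in HIBD model 2, 8, 16 and 18, and 373, 310, 245 and 392 FPKM in acupuncture 5, 22, 35 and 55. On FPKM, acupuncture 55 lay just below the lowest normal library, and 3 of the 4 HIBD model libraries lay below the normal range. On the CPM scale HIBD model 8, at 303 CPM, lay within the normal range of 296 to 354 CPM. The same held for acupuncture 5 and 55, at 313 and 309 CPM. In edgeR the log2 fold change was -0.29 between HIBD model and normal (SE 0.18, 95% interval -0.69 to 0.11, edgeR adjusted p = 0.396), with -0.16 without HIBD model 16. It was -0.21 between acupuncture and normal (SE 0.18, edgeR adjusted p = 0.518).

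Slc1a2 and Slc1a3 encode the 2 astrocyte glutamate transporters, known as GLT-1 and GLAST, which clear glutamate from synapses. Slc1a2 measured 617, 628, 593 and 546 FPKM in normal 8, 10, 11 and 13. It measured 572, 792, 541 and 426 FPKM in HIBD model 2, 8, 16 and 18, and 772, 715, 695 and 736 FPKM in acupuncture 5, 22, 35 and 55. All 4 acupuncture libraries were above all 4 normal libraries, while the HIBD model libraries held both the highest and the lowest of the 12. The means were 596 ± 36.4, 583 ± 153 and 729 ± 33.1 FPKM (SD, n = 4; normal, HIBD model, acupuncture). The log2 fold change between acupuncture and normal was 0.43 (SE 0.19, 95% interval 0.0052 to 0.85, edgeR adjusted p = 0.199). It passed in a fit of these 2 groups alone (edgeR adjusted p = 0.0438), which called 3.07% of all genes. Between HIBD model and normal it was 0.09 (SE 0.19, edgeR adjusted p = 0.835), and -0.14 without HIBD model 8, so no direction is given.

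Slc1a3 measured 187, 207, 177 and 198 FPKM in normal 8, 10, 11 and 13. It measured 214, 180, 132 and 209 FPKM in HIBD model 2, 8, 16 and 18, and 156, 154, 140 and 180 FPKM in acupuncture 5, 22, 35 and 55. The ranges overlapped in every comparison, by acupuncture 55 alone in that with normal. Its log2 fold change was 0.02 between HIBD model and normal (SE 0.11, 95% interval -0.22 to 0.25, edgeR adjusted p = 0.950), -0.17 for acupuncture against the HIBD model (SE 0.11, edgeR adjusted p = 1.0) and -0.15 between acupuncture and normal (SE 0.11, edgeR adjusted p = 0.399). Of 4 Ensembl rows, ENSRNOT00000035821 averaged 150 FPKM and ENSRNOT00000022319 averaged 27.1 FPKM, ENSRNOT00000085599 was above 0 in 8 libraries and ENSRNOT00000077790 was listed at 0 in all 12.

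The ratio of the transporters within a library needs no scaling between libraries. Their log2 CPM had r = -0.34 over the 12 libraries, which did not pass (permutation p adjusted 0.414). Slc1a2 over Slc1a3 (FPKM) was 3.30, 3.03, 3.34 and 2.75 in normal 8, 10, 11 and 13. It was 2.67, 4.41, 4.11 and 2.03 in HIBD model 2, 8, 16 and 18, and 4.95, 4.63, 4.96 and 4.09 in acupuncture 5, 22, 35 and 55. HIBD model 2 and 18 were below every normal library, and HIBD model 8 and 16 were above every normal library and within the range of the acupuncture libraries. The group means were 3.11 ± 0.272, 3.31 ± 1.14 and 4.66 ± 0.409 (SD, n = 4; normal, HIBD model, acupuncture). This ratio was chosen after the values were seen, so no test is given.

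Glul encodes glutamine synthetase, which turns the glutamate taken up into glutamine. It measured 777, 723, 748 and 778 FPKM in normal 8, 10, 11 and 13, the narrowest range of the 8 genes in that group (SD 3.44% of the mean). It measured 784, 572, 358 and 627 FPKM in HIBD model 2, 8, 16 and 18, and 547, 551, 492 and 669 FPKM in acupuncture 5, 22, 35 and 55. On FPKM HIBD model 2 was above the normal libraries, and the other 3 HIBD model libraries and all acupuncture libraries were below them. On the CPM scale HIBD model 2, at 432 CPM, lay within the normal range of 409 to 448 CPM, with the others still below it. In edgeR the log2 fold change was -0.29 between HIBD model and normal (SE 0.15, 95% interval -0.63 to 0.04, edgeR adjusted p = 0.290), with -0.15 without HIBD model 16 (edgeR adjusted p = 0.451). It was -0.29 between acupuncture and normal (SE 0.15, edgeR adjusted p = 0.268). Between acupuncture and HIBD model the 95% interval reached from -0.33 to 0.34.

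Gja1 encodes connexin 43, the main gap junction protein between astrocytes. It measured 185, 201, 173 and 210 FPKM in normal 8, 10, 11 and 13. It measured 181, 139, 102 and 178 FPKM in HIBD model 2, 8, 16 and 18, and 134, 130, 119 and 138 FPKM in acupuncture 5, 22, 35 and 55. All acupuncture libraries were below all normal libraries, and of the HIBD model libraries 2 and 18 lay within the normal range and 8 and 16 below it. The means were 192 ± 16.3, 150 ± 37.3 and 130 ± 8.18 FPKM (SD, n = 4; normal, HIBD model, acupuncture). The log2 fold change between acupuncture and normal was -0.42 (SE 0.11, 95% interval -0.67 to -0.18, unadjusted p = 0.00319, edgeR adjusted p = 0.104). It was -0.28 between HIBD model and normal (SE 0.11, edgeR adjusted p = 0.182), with -0.17 without HIBD model 16, and -0.15 for acupuncture against the HIBD model (SE 0.11, edgeR adjusted p = 1.0).

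The call for Gja1 between acupuncture and normal depended on the test. It passed with DESeq2 (adjusted p = 0.0141), in edgeR fitted to these 2 groups (adjusted p = 0.0345) and in edgeR with HIBD model 16 and normal 10 both left out (adjusted p = 0.0125). These settings called 15.6%, 3.07% and 11.7% of all genes, against 0.0825% in the fit of all libraries. The estimate kept its sign in all 23 alternatives, from -0.56 to -0.18 on the log2 scale, and was smallest with 1 surrogate variable. An assembled row, TCONS_00214454, added 5.40 to 15.1 FPKM to the 96.8 to 195 FPKM of the Ensembl row ENSRNOT00000001054. The Ensembl row held 93.4 ± 0.623% of Gja1 in normal, 94.8 ± 0.598% in HIBD model and 94.5 ± 0.361% in acupuncture libraries (SD, n = 4), differences that did not pass (exact permutation p = 0.0571 against normal for each, adjusted 0.161). Slc1a2 likewise had an assembled row, TCONS_00235121, of 12.5 to 26.4 FPKM.

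The division of the HIBD model group in Gja1 and Vim was also that of a gene outside the list. ENSRNOG00000009577, known from earlier results of these data to vary widely between libraries, measured 9.83, 21.5, 12.04 and 24.5 FPKM in normal 8, 10, 11 and 13. It measured 14.7, 0.684, 1.67 and 13.5 FPKM in HIBD model 2, 8, 16 and 18, and 0.716, 0.402, 0.364 and 0.442 FPKM in acupuncture 5, 22, 35 and 55. The libraries with a low value were the 6 with a Gja1 level of 139 FPKM or less and a transporter ratio of 4.09 or more. Its part in the levels of Gja1, Slc1a2 or Vim was not tested. In the genes with a mean of at least 1 FPKM, 13.5% had HIBD model 2 and 18 within the normal range and 8 and 16 below it on FPKM. So had 2 of the 8 members (Gja1 and Vim), and the pattern was not confined to these genes. The mirror pattern, with 8 and 16 above the normal range, held for 2.32%. HIBD model 8 and 16 also had the lowest summed FPKM (397247 and 392600), whose part in these shares was not tested. On the CPM scale the division of Gja1 was less sharp, with HIBD model 2, 8, 16 and 18 at 134, 122, 91.9 and 133 CPM, normal libraries from 134 to 153 CPM and acupuncture libraries from 98.9 to 114 CPM.

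**Figure D4:**
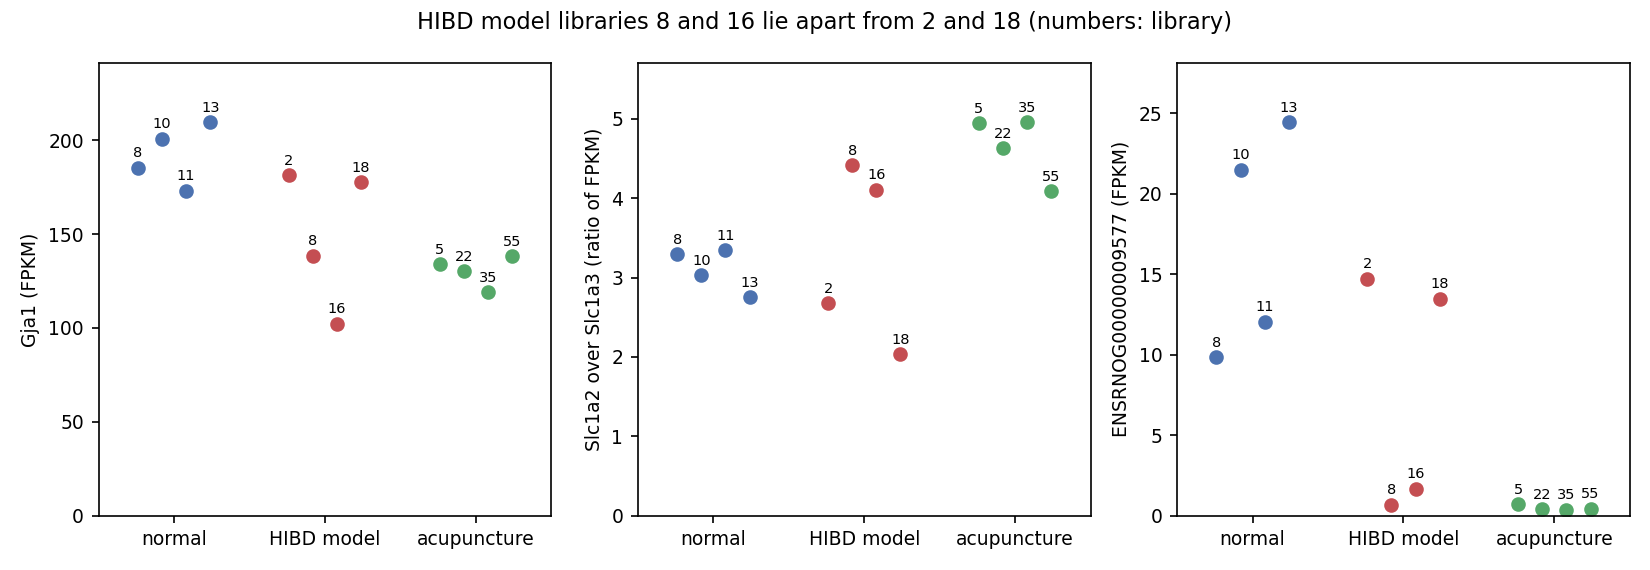
Gja1 (FPKM), the ratio of Slc1a2 to Slc1a3 (FPKM within a library) and ENSRNOG00000009577 (FPKM) in each library by group; each point is 1 library with its number and all y axes begin at 0. In each panel HIBD model 8 and 16 lie with or near the acupuncture libraries, and HIBD model 2 and 18 with or near the normal libraries.

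Some of the genes varied together over the libraries. Aqp4 was left out here because its libraries form 2 clusters, which leaves 21 pairs of 7 genes, with 16 positive values of Pearson's r over the 12 libraries (log2 CPM). Of these pairs, 6 passed an adjusted p of 0.05 by r, 3 by Spearman's rho and 2 by both. The 2 pairs were Gja1 with Glul (r = 0.84, permutation p adjusted over 21 pairs 0.0037, rho = 0.79, adjusted 0.0288) and Gja1 with Vim (r = 0.83, adjusted 0.00567, rho = 0.78, adjusted 0.0288). Without the 2 libraries farthest from the median of the first gene of each pair (HIBD model 16 and acupuncture 35 for Gja1 with Glul, HIBD model 8 and 16 for Vim with Gja1) r was 0.64 and 0.81. With the group means removed r was 0.82 for both.

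The other 4 pairs called by r alone were S100b with Glul, Vim with Glul, Slc1a3 with Gja1 and Slc1a3 with Glul. Slc1a3 with Glul had r = 0.71 (permutation p adjusted 0.0289), and without HIBD model 16 and acupuncture 35 r was 0.22, so that relation rested on those libraries. Slc1a3 with Gja1 had r = 0.77 (permutation p adjusted 0.0132) and 0.48 without the same 2 libraries. With all libraries kept and the group means removed, untested, r was 0.86 for Slc1a3 with Glul and 0.91 for Slc1a3 with Gja1. It was 0.85 for S100b with Glul and 0.74 for Vim with Glul. Vim and Slc1a2 had a negative relation called by rank alone (rho = -0.78, permutation p adjusted 0.0288, r = -0.58, adjusted 0.0921). None of the 6 pairs of Gfap passed, with r from -0.09 to 0.42 and permutation p of at least 0.174 by r. With the group means removed, untested, Gfap had r = 0.70 with Gja1, 0.58 with Vim, 0.55 with Slc1a3, 0.53 with Glul, 0.50 with S100b and -0.19 with Slc1a2. Without normal 8 and HIBD model 16, and with group means kept, r was 0.42 with Slc1a3, 0.15 with Gja1 and 0.13 with Vim. It was -0.02 with S100b, -0.03 with Glul and -0.28 with Slc1a2. Values with both steps applied were not computed. No share of related pairs over all genes was computed.

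**Figure D5:**
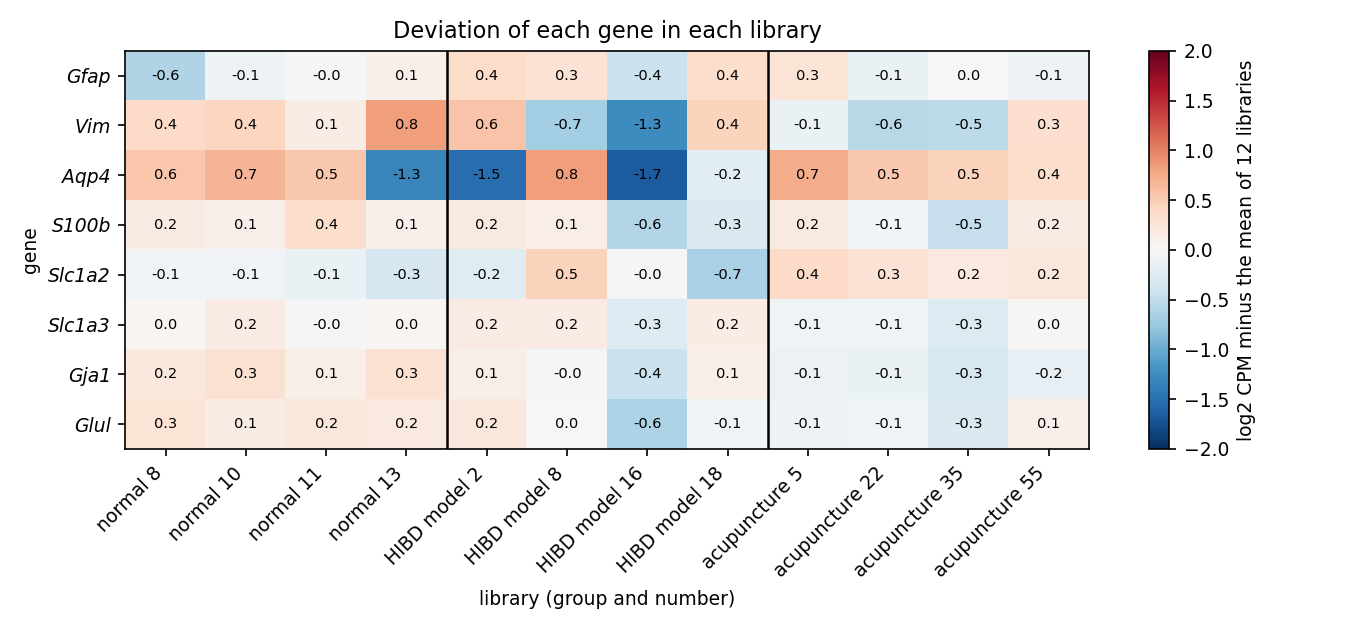
Deviation of each gene (y axis) in each library (x axis, in group order) from its mean over 12 libraries, as log2 CPM (colour scale and printed values); lines separate the groups. HIBD model 16 is at or below the mean for all 8 genes, and the Aqp4 row is negative in normal 13 and HIBD model 2, 16 and 18.

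A measure of the whole library moved with some of the genes. Loci named only by the transcript assembler took 0.795% to 1.51% of the estimated counts in normal, 1.43% to 2.35% in HIBD model and 1.13% to 2.24% in acupuncture libraries, highest in HIBD model 16. Over 12 libraries the log2 of this share had r = -0.72 with Glul (permutation p adjusted over 7 genes 0.0397, rho = -0.85, adjusted 0.00805) and r = -0.70 with Vim (permutation p adjusted 0.0451, rho = -0.68, adjusted 0.0521). Without normal 8 and 13, the libraries farthest from the median share, r was -0.65 and -0.61. With the group means removed r was -0.52 for Glul and -0.54 for Vim. Gja1 had r = -0.61 (permutation p adjusted 0.0901), which was -0.16 with the group means removed, and Gfap had r = 0.28 (permutation p adjusted 0.438). The part of this share in the differences between groups was not tested.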

How the data were processed

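RNA was extracted from frozen prefrontal cortex with Trizol, and libraries were made with a NEBNext kit for Illumina, per the labels' protocols. HTSeq 0.6.0 and Rnor_6.0 are named without a role, per the submitters' processing notes, and no source used here gives the aligner, assembler or strand setting. The authors deposited 1 table of whole numbers per transcript, treated here as estimated counts (expected counts), and 12 tables of values per transcript labelled by gene. The deposited values of these 12 tables were read as FPKM from their range, since no header or label names the unit. Each estimated count was the FPKM of the same row times a factor of the row and of the library (median deviation 0.0011% over 12003 rows above 2000), which pairs the rows of 78025 transcripts.

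Values were summed per gene. edgeR 4.0.16 (TMM, filterByExpr, quasi-likelihood test, all 12 libraries in 1 fit) in R 4.3.3 tested 27885 genes and was tested on simulated data. Standard errors were derived from the F statistic. Other settings tried were RLE, DESeq2 1.42.0, limma 3.58.1 (voom, and trend on log2(FPKM + 1) and log2(FPKM + 0.1)), no filter, at least 1 CPM in 4 libraries, 2 groups only, Ensembl transcript rows only, 1 surrogate variable (sva 3.50.0) and each library left out. The CPM and FPKM scales for relations, the removal of group means and the omission of HIBD model 16 with normal 10 were added after seeing the data. Relations used 100000 permutations. The members and lists were chosen with earlier results of these data known. All 8 members are named. Lists of other astrocyte genes and cell types were planned by symbol, but the reference table (GRCr8) held Ensembl identifiers for 0 genes, so they were not analysed here. Promoter bases came from RefSeq, matched by symbol.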

Additional observations from a re-analysis of the deposited data

Results flagged for a closer look

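Of 39 groups of 4 values looked at (8 gene levels and 5 shares of the leading transcript row in 3 groups), 1 held a library far from the others by Dixon's ratio, where chance alone gives about 1 in 20. It was Aqp4 in normal 13, at 23.1 FPKM against 79.1 to 88.6 FPKM in the other normal libraries (gap over range 0.855). Both main Aqp4 rows were low there.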

How the results depend on the processing

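No paired analysis was possible because the groups share only 1 library number, and the labels do not link it. Of the 8 genes, 0 passed in any comparison, and under the alternatives this count changed only between acupuncture and normal, to 1 with DESeq2 (Gja1), 2 with the 2 groups alone (Gja1 and Slc1a2) and 1 without HIBD model 16 and normal 10 (Gja1). Those settings called 15.6%, 3.07% and 11.7% of all genes, against 0.0825% in the fit of all libraries. With 1 surrogate variable, which has opposite signs in the normal and acupuncture libraries and so takes up that contrast, the log2 fold change turned to 0.27 for Vim and -0.27 for Slc1a2 between HIBD model and normal, to 0.25 for Vim between acupuncture and HIBD model, and to 0.52 for Vim, -0.63 for Aqp4, 0.030 for S100b, 0.00060 for Slc1a3 and 0.085 for Glul between acupuncture and normal. On log2(FPKM + 1) and log2(FPKM + 0.1), HIBD model against normal gave -0.065 and -0.065 for Slc1a2 and -0.090 and -0.090 for Slc1a3. Between acupuncture and HIBD model Glul was 0.004 and turned to -0.0086 with RLE, -0.0086 with DESeq2, -0.013 without a filter, -0.016 at 1 CPM in 4 libraries, -0.0056 and -0.0055 on the FPKM scales, -0.013 with 2 groups and -0.14 without HIBD model 16 and normal 10, where S100b was -0.049. The cause of these turns was not tested. With single libraries left out, values that turned ranged from -0.14 to 0.25 for Slc1a2 and -0.016 to 0.11 for Slc1a3 (HIBD model against normal), from -0.38 to 0.13 for Vim, -0.048 to 0.20 for S100b and -0.14 to 0.12 for Glul (acupuncture against HIBD model), and from -0.064 to 0.39 for Aqp4 (acupuncture against normal). The Slc1a3 row share difference between HIBD model and normal ranged from -1.30 to 0.21 percentage points. Gfap and Gja1 kept their direction in all 23 alternatives of each comparison. The number of reads behind a value is not known, which limits what can be said of low rows.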
